A study of Mus musculus with 48 samples.

Results

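The Zfp genes of the mouse are named for the zinc finger proteins they encode, and 284 of them were expressed in the striatum samples described here. A gene belonged to the set when its symbol was Zfp followed by a number and its mean level over 48 libraries was at least 4 CPM, where CPM is the usual measure of a gene's count scaled to the total of its library. The count table lists 372 Zfp genes among 48795 genes, and 4 of the 372 had no count in any library. The members were chosen by this measured level, so levels are given as a description with no test. Just inside the threshold lay Zfp92 at 4.11, Zfp879 at 4.08 and Zfp58 at 4.01 CPM. Just outside it lay Zfp78 at 3.95, Zfp786 at 3.81 and Zfp568 at 3.77 CPM.

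RNA was sequenced from the striatum of C57BL/6 mice at 6 months of age in 6 genotype groups. These were 7 wild-type libraries, 8 heterozygous for the Q140 knock-in, 9 labelled Msh3+/-, 8 labelled Msh3-/-, 8 carrying Q140 with Msh3+/- and 8 carrying Q140 with Msh3-/-. The Q140 allele is a Huntington's disease model in which the mouse Htt gene carries an expanded CAG repeat, expressed from its own locus in every cell type that uses Htt, and the product of Msh3 is a DNA mismatch repair factor that takes part in the lengthening of such repeats in body cells. Both sexes were sampled, with 24 female and 24 male libraries. Whether the libraries come from different animals is not given in the labels, so the p-values measure the spread between libraries, which may be technical.

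A zinc finger is a short loop of protein folded around a zinc ion, and many Zfp proteins carry a row of fingers that together read a stretch of DNA. The largest class also has a KRAB domain, which binds the corepressor Trim28. Trim28 brings the histone methyltransferase Setdb1 and heterochromatin proteins to the bound site, and the best known targets of this system are transposable elements. KRAB zinc finger genes often arose by tandem duplication and lie in clusters. Reads from near-identical copies can be hard to assign to a single gene, so values of members in such clusters are less certain than those of isolated genes.

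The sequence upstream of the start site was matched in RefSeq (GRCm38.p6) for 235 of the 284 members. The 250 bases before the start are shown for the 2 members with the largest rises and the 2 with the largest falls in Q140 against wild type among those matched, because these genes carry the largest differences described further on. Zfp7 and Zfp711 were not matched. Sequences run 5′ to 3′ on the strand of the gene, and capitals mark matches on either strand to CCGGAAG (the core bound by ETS factors), GGGCGG (a GC box), CCAAT or TATAAA.
Zfp30, chr7:29783718-29783967, plus strand: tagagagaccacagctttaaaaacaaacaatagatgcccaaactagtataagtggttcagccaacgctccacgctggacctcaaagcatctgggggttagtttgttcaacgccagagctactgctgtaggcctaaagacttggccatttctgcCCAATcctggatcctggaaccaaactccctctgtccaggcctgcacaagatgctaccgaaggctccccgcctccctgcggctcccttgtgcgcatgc
Zfp661, chr2:127587095-127587344, minus strand: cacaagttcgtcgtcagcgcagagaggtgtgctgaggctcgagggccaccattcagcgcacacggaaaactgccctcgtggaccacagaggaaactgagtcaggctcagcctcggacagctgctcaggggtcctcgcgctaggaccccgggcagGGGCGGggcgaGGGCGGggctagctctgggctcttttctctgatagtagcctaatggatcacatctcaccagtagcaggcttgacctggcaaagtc
Zfp180, chr7:24081647-24081896, plus strand: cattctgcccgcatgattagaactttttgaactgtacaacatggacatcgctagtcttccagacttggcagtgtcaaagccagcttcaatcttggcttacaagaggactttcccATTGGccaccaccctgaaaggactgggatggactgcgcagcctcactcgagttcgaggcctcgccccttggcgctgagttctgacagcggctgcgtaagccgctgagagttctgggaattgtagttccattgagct
Zfp458, chr13:67268995-67269244, minus strand: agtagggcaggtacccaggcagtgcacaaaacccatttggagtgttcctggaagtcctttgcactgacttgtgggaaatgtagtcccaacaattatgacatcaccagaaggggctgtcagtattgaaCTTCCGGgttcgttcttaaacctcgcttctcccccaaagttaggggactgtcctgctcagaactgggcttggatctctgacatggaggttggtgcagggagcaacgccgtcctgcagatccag
The Zfp30 and Zfp180 windows each held 1 CCAAT match, Zfp661 held 2 GC boxes and Zfp458 held 1 ETS core. The Zfp458 window lies inside the span that GENCODE M21 gives the gene. Over the 235 matched members, 16.6% of the windows held the ETS core, against 7.07% of the 27025 windows of all genes. A CCAAT match was present in 46.8% of member windows and 34.5% of all windows, a GC box in 40.9% and 33.0%, and TATAAA in 5.96% and 13.0%. The members were chosen for a level of at least 4 CPM and the windows of all genes were not. The 2 sets therefore differ in level as well as in family, and these shares do not tell the 2 apart. A match is a run of letters and not a measured binding site.

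The members differed widely in structure and level. A coding sequence was annotated for 281 of them, and 136 of these held a KRAB pattern, which is a match of the translated longest coding sequence to either end of the KRAB A box. The classical finger pattern (2 cysteines and 2 histidines) was found in 274 members, with up to 37 fingers in a protein. The 136 KRAB members had a median of 12 fingers and a median level of 13.0 CPM, and the 145 others had 8 fingers and 23.9 CPM. The finger pattern had no match in 7 members, among them Zfp365, a centrosomal coiled-coil protein, and Zfp36 (tristetraprolin), an RNA-binding protein whose fingers are of another type.

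Per length of transcript, Zfp365 was the most abundant member at a mean of 106 FPKM (fragments scaled to transcript length and library total). It was followed by Zfp445 at 39.2, Zfp523 at 34.6, Zfp106 at 34.2 and Zfp706 at 31.0 FPKM. The median member lay at 4.09 FPKM. Zfp445 is a KRAB protein that helps to maintain genomic imprints, and Zfp106 is an RNA-binding protein needed for motor neuron upkeep. Zfp445 and Zfp523 had nearly the same range in wild type and Q140. Zfp445 ranged from 110 to 122 TMM-scaled CPM in wild-type and from 108 to 123 in Q140 libraries, and Zfp523 from 129 to 149 and from 128 to 150. All 284 members passed the count filter, and the lowest count of any member in any library was 98.

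The libraries held 33673410 to 52808289 counts, and the members together took 0.807% to 0.891% of them. Mitochondrial genes took 6.32% to 8.48%, and no libraries had identical values. The striatal label was matched by 18 marker genes of medium spiny neurons, the projection neurons of the striatum, whose mean levels ran from 75.4 to 2423 CPM. Msh3 itself had more reads in the libraries labelled as mutants: wild type ranged from 29.1 to 33.0 TMM-scaled CPM, the Msh3+/- label from 68.2 to 85.3 and the Msh3-/- label from 111 to 131. These ranges do not overlap, so the libraries separate by label, but the direction is opposite to a loss of transcript. The group names used here are therefore the labels of the libraries. A Q140 Msh3+/- library, F1, held choroid plexus markers at a summed 4315 CPM, against a median of 36.4 over all libraries.

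The shift shared by the Zfp genes was small and differed between the scalings used. Each library was first compared with the mean of the wild-type libraries, gene by gene on the log2 scale, and the median over the 284 members was taken. Under TMM scaling, which matches libraries on genes assumed not to change, this median ran from -0.03 to 0.04 in wild type, with a median library at 0.003. In the 8 Q140 libraries it ran from -0.01 to 0.05 with a median library at 0.04. The other groups had median libraries at 0.01 (Msh3+/-), 0.009 (Q140 Msh3+/-), -0.009 (Msh3-/-) and -0.001 (Q140 Msh3-/-). Every group's range overlapped that of wild type.

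When libraries were scaled to their total counts instead, the Q140 libraries moved furthest. Their shift ran from 0.026 to 0.20 with a median library at 0.11, while wild type ran from -0.03 to 0.032. The 2 ranges overlapped through Q140 library M4, at 0.026. The median library was at 0.04 in Q140 Msh3+/- and at 0.04 in Q140 Msh3-/-, and at 0.003 and -0.002 in Msh3+/- and Msh3-/-. All genes of at least 4 CPM moved with them: their median in the Q140 libraries ran from 0.04 to 0.13. The TMM factors that make the difference were 1.01 to 1.09 in Q140 and 0.970 to 1.002 in wild type.

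**Figure D1:**
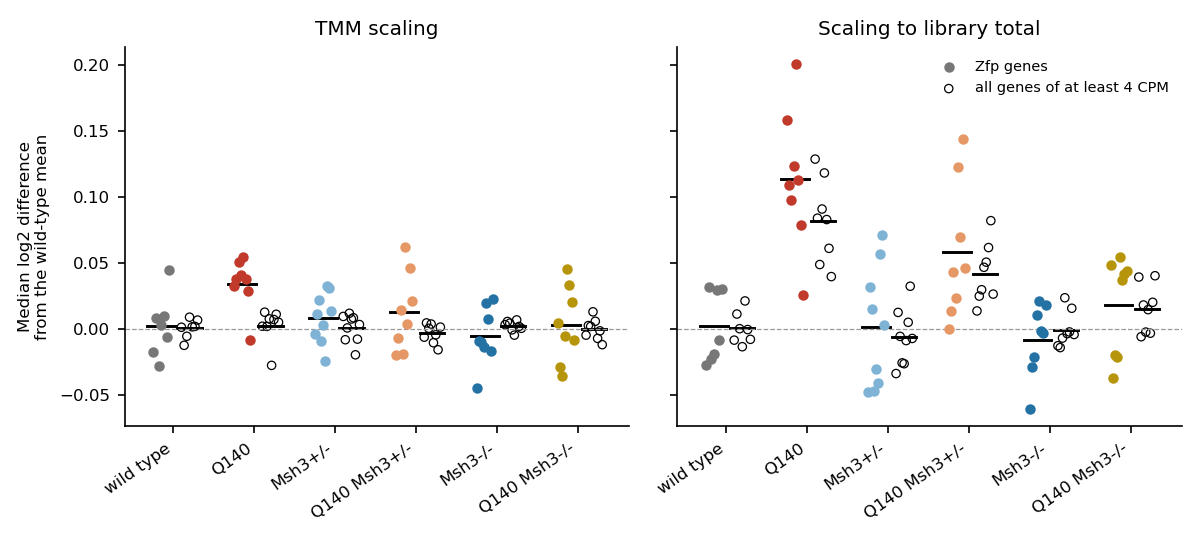
Median log2 difference of each library from the wild-type mean, over the 284 Zfp genes (filled points) and over all genes of at least 4 CPM (open points), by genotype group under TMM scaling (left) and scaling to library totals (right). Bars are group means. Under total scaling the Q140 libraries lie between 0.026 and 0.20 and wild type between -0.03 and 0.032. The 2 groups overlap under both scalings, under total scaling only through Q140 library M4.

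In Q140 against wild type, more members rose than fell. With TMM scaling and edgeR's quasi-likelihood test at a Benjamini-Hochberg adjusted p under 0.05, 46 members rose and 17 fell, which is 16.2% and 5.99% of the members. Among all 19975 genes tested, 9.64% rose and 10.2% fell. Only 12466 of the genes tested reach the 4 CPM asked of members. Shares of members and of all genes tested, here and in the other comparisons, therefore differ in level as well as in family. The median fitted log2 difference was 0.04 over the members, 0.01 over all genes tested and 0.003 over the 12466 genes of at least 4 CPM. The difference was positive for 182 of 284 members. Leaving out any of the 15 libraries in turn gave 51 to 74 called members.

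With scaling to library totals, 117 members rose and 8 fell, against 25.4% and 5.53% of all genes tested. The median was 0.12 over the members and 0.08 over genes of at least 4 CPM, and 239 members were positive. The change of scaling added 0.08 to the median member and 0.08 to the median of all genes tested. All 46 members that rose under TMM also rose under total scaling. Of the 17 that fell, 8 fell under both, and the other 9, including Zfp148, Zfp91 and Zfp644, lost the call.

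The median difference fell with the level of the gene, among the members and among all genes. In ranges of mean level chosen after the data were seen, the 79 members of 4 to 10 CPM had a median of 0.07, and 2425 genes of that level had 0.04. At 10 to 30 CPM the medians were 0.05 for 126 members and 0.03 for all genes, and at 30 to 100 CPM they were 0.002 for 65 members and -0.005 for all genes. Above 100 CPM the 14 members had -0.08 and all genes -0.07. In the 10 to 30 CPM range 18.3% of members and 15.9% of all genes rose, and 2.38% of members and 7.42% of all genes fell. Across members, Spearman's rho of the log2 difference with mean CPM was -0.32, and across all genes of at least 4 CPM it was -0.26. With the number of fingers it was -0.03, over 281 members. These are correlations across genes, which share libraries and are not independent replicates.

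**Figure D2:**
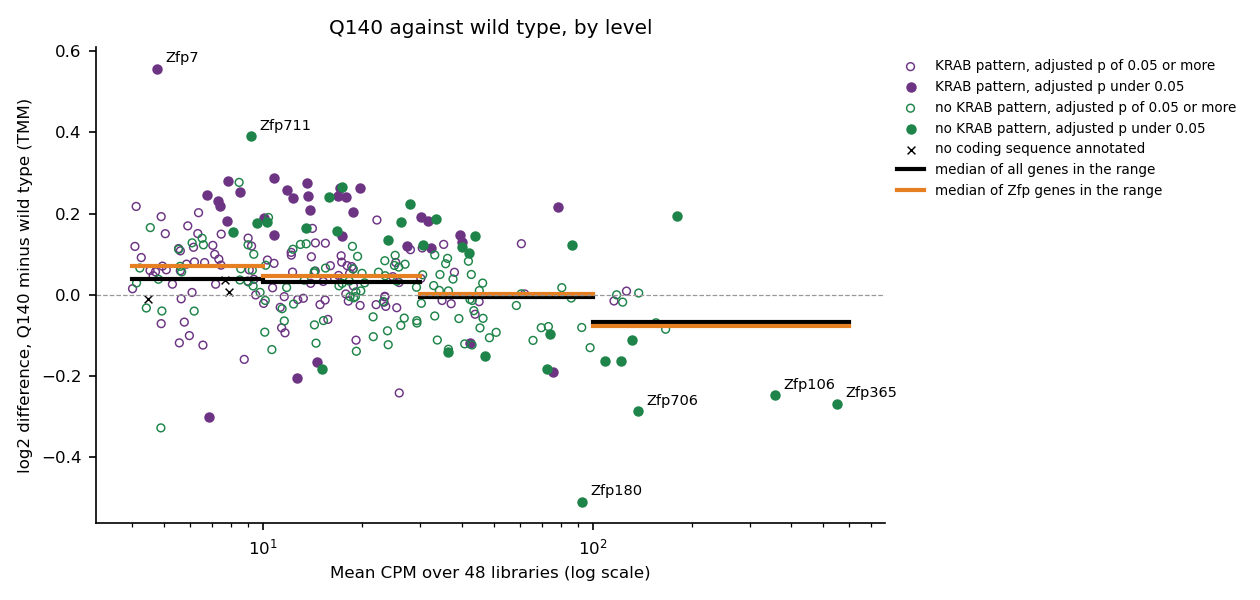
Log2 difference between Q140 and wild type under TMM scaling for each of 284 Zfp genes against mean CPM on a log scale, coloured by KRAB pattern and filled where the adjusted p is under 0.05. Orange and black lines are the medians of the Zfp genes and of all genes in each range of level, which fall from 0.07 and 0.04 at 4 to 10 CPM to -0.08 and -0.07 above 100 CPM.

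Members with a KRAB pattern had the larger median. Of the 136, 28 rose and 5 fell, with a median of 0.07, and of the 145 without it 18 rose and 12 fell, with a median of 0.02. These are 20.6% and 3.68% of the KRAB members and 12.4% and 8.28% of the others, where 9.64% and 10.2% of all genes tested rose and fell. Under total scaling 67 KRAB members rose and 2 fell (49.3% and 1.47%), and 50 of the others rose and 6 fell (34.5% and 4.14%), against 25.4% and 5.53% of all genes tested. Between 30 and 100 CPM the median was 0.09 for 18 KRAB members and -0.01 for 47 others, and between 4 and 10 CPM it was 0.08 for 50 and 0.07 for 26. The range of 10 to 30 CPM holds the most members of both classes, 66 and 60, and its medians by class are not given here. The classes also differ in level, with medians of 13.0 CPM for KRAB members and 23.9 for the others. The per-library median of the KRAB members ran from -0.06 to 0.07 in wild type and from -0.02 to 0.10 in Q140 under TMM scaling, so the groups overlap. The difference between the classes was not tested.

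**Figure D3:**
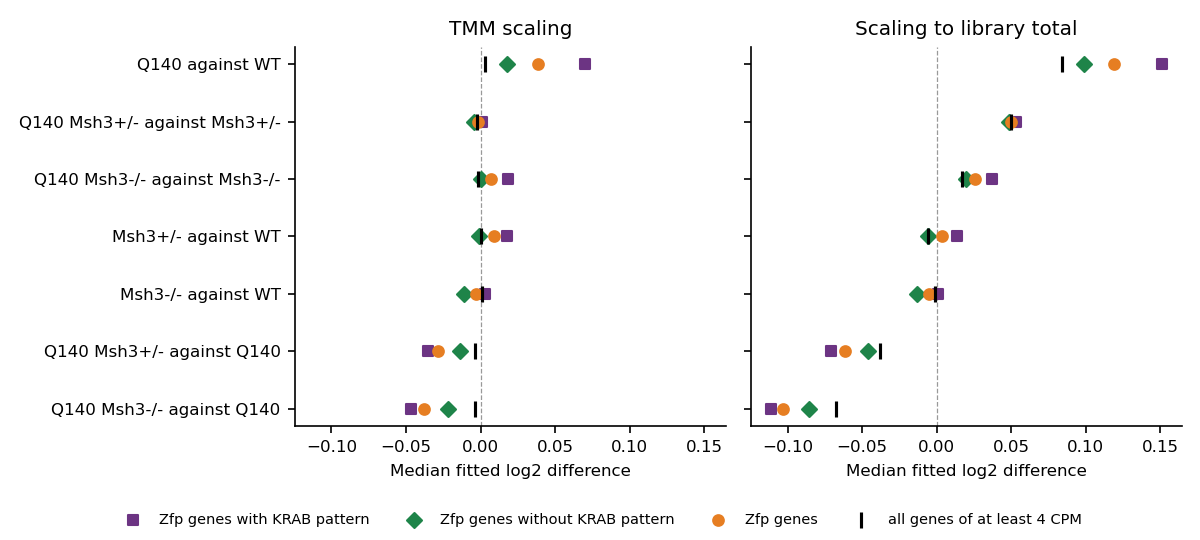
Median fitted log2 difference in 7 comparisons (rows) over the 284 Zfp genes, their 136 KRAB and 145 other members, and all genes of at least 4 CPM, under TMM scaling (left) and scaling to library totals (right). The KRAB members lie at 0.07 in Q140 against WT and at -0.05 in Q140 Msh3-/- against Q140 under TMM scaling, and at 0.15 and -0.11 under total scaling.

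Marker genes of striatal cells moved in the same libraries. All 18 medium spiny neuron markers fell in Q140 against wild type, with a median of -0.49 and summed levels of 11196 to 16287 CPM in Q140 against 18216 to 20548 in wild type. Of 12 astrocyte markers 7 fell, and their sum was 4750 to 5668 CPM in Q140 and 6025 to 6569 in wild type. Of 12 endothelial and mural markers 4 fell, with sums of 334 to 407 and 410 to 453 CPM. The other lists showed fewer calls: 3 of 12 microglial markers fell, 1 of 12 oligodendrocyte markers rose and 1 fell, 1 of 8 precursor markers fell, 1 of 6 choroid plexus markers fell and 1 of 7 cortical neuron markers rose. The choroid plexus marker Kcnj13 was at 0 in at least 1 library. In bulk tissue, fewer cells of a type and less RNA per cell cannot be told apart, and the part of these markers in the Zfp shift was not tested.

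The members with the largest rises in Q140 were mostly of low level. Zfp7, a KRAB protein with 16 fingers at chr15:76879259-76892395 (GRCm38), had 3.26, 4.36 and 4.85 TMM-scaled CPM as the lowest, median and highest wild-type library. In Q140 it had 4.87, 6.42 and 7.02. The 2 groups do not overlap, and the log2 difference was 0.56 (SE 0.09, adjusted p = 5.1e-06).

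Zfp711, an X-linked partner of the histone demethylase Phf8, had 7.71, 8.29 and 9.32 CPM in wild type and 9.32, 10.6 and 12.5 in Q140, a log2 rise of 0.39 (SE 0.07, adjusted p = 5.5e-05). The lowest Q140 library lay at the level of the highest wild-type library. Zfp30, a KRAB protein whose upstream window is printed above, rose by 0.29 (SE 0.06, adjusted p = 0.00046), from 8.13, 10.4 and 11.3 CPM in wild type to 10.4, 12.2 and 14.4 in Q140. Zfp661, also printed above, rose by 0.28, from a median of 7.25 to 8.92 CPM. For both genes the groups overlapped.

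Zfp641 rose by 0.28 on the log2 scale, and Zfp956, Zfp90 and Zfp9 each rose by 0.26, with adjusted p-values of 0.0012, 0.00014, 0.00016 and 0.00015. All but Zfp956 and Zfp711 of these 8 members had the KRAB pattern. Zfp956 had 14.8, 16 and 17.5 CPM in wild type and 17.5, 18.8 and 22.7 in Q140, with no overlap. All 8 calls held when any library was left out.

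The members with the largest falls included some of the most abundant. Zfp180 (chr7:24081924-24107713), with 12 fingers and no match to the KRAB pattern, had 92.3, 104 and 110 CPM in wild type and 63.6, 72.2 and 85.6 in Q140. The groups do not overlap, and the fall of 0.51 (SE 0.05, adjusted p = 1.7e-10) was the largest fall among the members. Zfp706, a protein of 76 residues linked to the exit of stem cells from self-renewal, had 130, 144 and 157 CPM in wild type and 108, 119 and 126 in Q140. Its fall of 0.29 had an SE of 0.04 and an adjusted p of 7.0e-08.

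Zfp365 had 540, 574 and 603 CPM in wild type and 369, 481 and 538 in Q140, a fall of 0.27 (SE 0.05, adjusted p = 7.3e-05). Zfp106 had 369, 373 and 396 CPM in wild type and 285, 329 and 344 in Q140, a fall of 0.25 (SE 0.04, adjusted p = 3.1e-05). For both genes every Q140 library lay below every wild-type library. Zfp458 fell by 0.30, from a median of 7.37 to 6.19 CPM, and Zfp882 fell by 0.21, from 13.7 to 11.2 CPM. Both have the KRAB pattern.

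In all, 3 members had every Q140 library above every wild-type library, and 6 had every Q140 library below. Over the genes of at least 4 CPM the shares were 2.39% and 2.65%. Both directions together made 3.17% of the members and 5.04% of those genes. The members were Zfp7, Zfp956 and Zfp13 on the high side and Zfp180, Zfp706, Zfp365, Zfp106, Zfp458 and Zfp532 on the low side. Zfp13 and Zfp532 are named here after their values were seen.

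**Figure D4:**
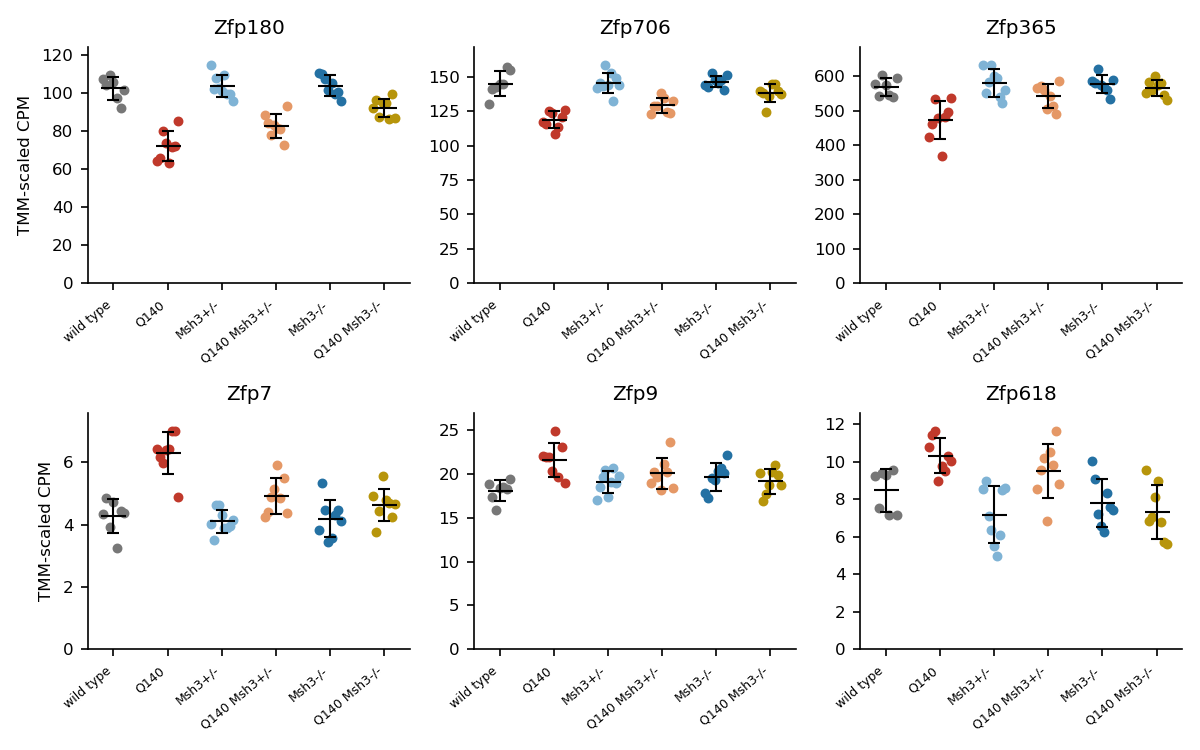
TMM-scaled CPM in each library for 6 Zfp genes, by genotype group, with the mean and SD of the group. Zfp180, Zfp706 and Zfp365 are lower and Zfp7 is higher in every Q140 library than in every wild-type library. For these genes the mean of the Q140 Msh3-/- group lies nearer to wild type than to Q140. Single Q140 Msh3-/- libraries do not all do so, and some lie within the Q140 range, such as F3 for Zfp706 and F4 for Zfp7.

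A further list held 16 Zfp genes with a textbook role, of which 14 were members. Of these, 5 fell in Q140 and 1 rose under TMM scaling, where 10.2% of all genes tested fell and 9.64% rose. The list is short, and its difference from all genes was not tested. Besides Zfp365 and Zfp106 they were Zfp148, a binder of GC-rich promoters, Zfp91, a ubiquitin ligase, and Zfp609, a partner of the cohesin loader Nipbl. Zfp609 fell by 0.16 (SE 0.03, adjusted p = 0.00041), from 121, 128 and 138 CPM in wild type to 105, 114 and 128 in Q140. Zfp148 fell by 0.16 (SE 0.04, adjusted p = 0.0036) and Zfp91 by 0.11 (SE 0.03, adjusted p = 0.0073). Under total scaling the calls of Zfp148 and Zfp91 were lost, at adjusted p = 0.073 and 0.45.

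Zfp207, a spindle assembly factor that stabilises Bub3, rose by 0.19 (SE 0.07, adjusted p = 0.047), from a median of 172 to 182 CPM. A single Q140 library reached 262, and the call was lost in 9 of the 15 fits without a library, with adjusted p up to 0.215. The other 8 did not pass the test. Zfp503 (Nolz1), a regulator of striatal development, had a log2 difference of 0.06, and Zfp521 and Zfp423, partners of Ebf factors, had 0.05 and -0.09. Zfp462, which limits heterochromatin, had -0.08, Zfp281, a pluripotency factor, -0.11, Zfp638, a silencer of unintegrated retroviral DNA, -0.07, Zfp809, a silencer of retroviral elements, -0.02, and Zfp36 -0.03. Zfp503 passed under total scaling, at adjusted p = 0.049. Zfp57 and Zfp568 had such a role but were not members.

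The Q140 Msh3-/- libraries were compared with the Q140 libraries to ask how the labelled loss of Msh3 bears on mice with the repeat. This comparison shares the Q140 libraries with Q140 against wild type, so the signs of the 2 comparisons are not independent, and the values are given side by side. Under TMM scaling 8 members rose and 23 fell, against 6.85% and 5.04% of all genes tested, with a median of -0.04 over members and -0.004 over genes of at least 4 CPM. Under total scaling 6 rose and 83 fell, against 4.03% and 17.3%, with a median of -0.10 against -0.07. Leaving out 1 library in turn gave 22 to 45 called members under TMM scaling, both directions together. The most that fell, 36, came without the Q140 library M4. Without the Q140 library M1, 22 of the 31 calls were kept. KRAB members accounted for 16 of the 23 that fell and 1 of the 8 that rose.

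Zfp180 rose from its Q140 values of 63.6, 72.2 and 85.6 CPM to 86.4, 93.5 and 99.6, without overlap, by 0.35 on the log2 scale (SE 0.05, adjusted p = 1.1e-06). Zfp365 rose by 0.26, to 533, 567 and 602 CPM, with an adjusted p of 0.00019. Zfp882 and Zfp706 each rose by 0.22, with adjusted p of 0.00054 and 2.9e-05. The wild-type medians of Zfp180, Zfp365 and Zfp706 were 104, 574 and 144 CPM, and those of Q140 Msh3-/- were 93.5, 567 and 139.

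Among those that fell, Zfp618, a partner of the methyl-DNA reader Uhrf2, went from 8.97, 10.2 and 11.7 CPM in Q140 to 5.60, 6.98 and 9.59, by 0.49 (SE 0.11, adjusted p = 0.0028). The groups overlapped. Zfp7 fell by 0.44 (SE 0.08, adjusted p = 0.00027), to 3.76, 4.67 and 5.57 CPM, Zfp711 by 0.29 (SE 0.07, adjusted p = 0.0028) and Zfp30 by 0.25 (SE 0.06, adjusted p = 0.0032). All 8 named calls held in each fit without a library. All 18 medium spiny neuron markers rose in this comparison, with a median of 0.33 and summed levels of 16246 to 18611 CPM, and their part in the Zfp values was not tested.

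With a single labelled Msh3 mutant allele fewer members differed. In Q140 Msh3+/- against Q140, 3 rose and 2 fell, against 1.28% and 0.696% of all genes tested, with a median of -0.03. Under total scaling 2 rose and 9 fell, against 1.15% and 2.48%, with a median of -0.06. Zfp180 and Zfp365 each rose by 0.20 (adjusted p = 0.023 for both), Zfp882 rose by 0.16, Zfp7 fell by 0.35 (adjusted p = 0.019) and Zfp661 fell by 0.24. None of the 5 calls held without Q140 library F1. The same was true without Q140 library M1 and without Q140 Msh3+/- library F1 or M4. The number called ran from 0 to 16 over fits that left out a library. In a fit of these 2 groups alone no member was called.

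The effect of the repeat was also measured on the other Msh3 backgrounds, in libraries that the first comparison does not use. In Q140 Msh3+/- against Msh3+/-, 7 members rose and 7 fell, against 2.96% and 3.49% of all genes tested, and the median was -0.002. Under total scaling 24 rose and 2 fell, against 8.98% and 2.07%, and the median was 0.05, the same as over genes of at least 4 CPM. The sign of the median differed between the scalings. Without the Q140 Msh3+/- library F3, 3 members rose under TMM scaling.

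The calls overlapped with those in Q140 against wild type. Shared were 10 members, which is 15.9% of the 63 and 71.4% of the 14, and all 10 went the same way in both. The same overlap was not counted over all genes tested, so these shares cannot be read as particular to the Zfp genes. They were Zfp180, Zfp7, Zfp706, Zfp90, Zfp106, Zfp513, Zfp91, Zfp219, Zfp251 and Zfp532. Zfp180 had 96.2, 102 and 115 CPM in Msh3+/- and 72.7, 82.6 and 93.3 in Q140 Msh3+/-, a fall of 0.32 (SE 0.05, adjusted p = 7.4e-06) without overlap. Zfp706 fell by 0.17 (SE 0.03, adjusted p = 0.00091). Zfp513, which lies 3.56 Mb from Htt on chromosome 5, rose by 0.15 (SE 0.04, adjusted p = 0.020), from a median of 22.3 to 24.9 CPM.

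Among the other called members, Zfp618 rose by 0.41 (SE 0.11, adjusted p = 0.017), from 4.95, 7.11 and 8.98 CPM to 6.87, 9.70 and 11.7. The call was lost without the Q140 Msh3+/- library M3, at adjusted p = 0.055. Zfp7 rose by 0.26 and Zfp90 by 0.16, with adjusted p of 0.049 and 0.030. The call of Zfp7 was lost in 12 of 17 fits without a library and that of Zfp90 in 6.

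Zfp941 fell by 0.32 (SE 0.09, adjusted p = 0.018). Its level in 1 Msh3+/- library, F4, was 39.6 CPM against a group median of 28.0, and without that library the fall was 0.25 with an adjusted p of 0.066. Zfp945 fell by 0.20 (SE 0.06, adjusted p = 0.030), and its call was lost in 8 of the fits. Under total scaling the calls of Zfp941 and Zfp945 were lost, at adjusted p = 0.052 and 0.11.

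In Q140 Msh3-/- against Msh3-/- edgeR called 0 members in either direction under TMM scaling, where 0.0501% of all genes tested rose and 0.025% fell. The count was also 0 under total scaling, against 0.0501% and 0.02%, and 0 with DESeq2. An unadjusted p under 0.05 was reached by 14 members, or 4.93%, against 6.72% of all genes. The median was 0.007 under TMM and 0.03 under total scaling. Zfp180 had 96.1, 103 and 111 CPM in Msh3-/- and 86.4, 93.5 and 99.6 in Q140 Msh3-/-, a log2 difference of -0.17 (SE 0.05, adjusted p = 0.26).

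The difference of the Q140 effect between the Msh3-/- and wild-type backgrounds was tested as an interaction. Under TMM scaling it was positive for 3 members and negative for 1, against 1.67% and 0.721% of all genes tested. Under total scaling it was positive for 2 and negative for 17, against 1.27% and 3.88%, and 14 of the 17 had the KRAB pattern. Zfp180 differed by 0.34 (SE 0.07, adjusted p = 0.0035), Zfp882 by 0.25 (SE 0.06, adjusted p = 0.024), Zfp706 by 0.20 (SE 0.05, adjusted p = 0.023) and Zfp9 by -0.30 (SE 0.07, adjusted p = 0.015). All 4 held in each fit without a library. Under total scaling Zfp706 and Zfp882 lost the call, at adjusted p = 0.071 and 0.083. Over fits that left out a library the number of negative calls under TMM scaling ran from 1 to 11, and the 11 came without the Q140 library M4.

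Zfp9, a KRAB protein with 12 fingers, had 15.9, 18.4 and 19.4 CPM in wild type and 19.0, 21.9 and 24.95 in Q140. It had 17.2, 19.8 and 22.2 in Msh3-/- and 16.9, 19.3 and 21 in Q140 Msh3-/-. The Q140 median was the higher on the wild-type background and the lower among the libraries labelled Msh3-/-, and in each pair the ranges overlapped. For Zfp365 the interaction was 0.24 with an adjusted p of 0.0501, and for Zfp7 it was -0.41 with an adjusted p of 0.057, which total scaling turned to 0.046 and 0.020.

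Without the repeat no member passed the test between the Msh3 labels. In Msh3+/- against wild type edgeR called 0 members in each direction under TMM scaling (0.01% of all genes tested rose and 0% fell) and under total scaling (0.01% and 0%). In Msh3-/- against wild type it also called 0 under TMM (0.01% and 0.02%) and under total scaling (0.01% and 0.02%). DESeq2 called 0 in both comparisons. At an unadjusted p under 0.05 there were 17 members in the first comparison and 21 in the second, which is 5.99% and 7.39%, against 4.72% and 4.04% of all genes. The medians were 0.009 and -0.003 under TMM scaling. Members near the Msh3 locus on chromosome 13 did not pass a test: Zfp366, 6.83 Mb away, had log2 differences of -0.06 and -0.03, and Zfp72 and Zfp825, at 17.8 and 17.7 Mb, lay between -0.08 and 0.10.

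Between the sexes 5 members were lower in females and 0 were higher with edgeR under TMM scaling, against 1.28% and 1.65% of all genes tested. Under total scaling 13 were lower and 0 higher, against 1.8% and 1.1%, and DESeq2 called 11 lower and 0 higher. The median was -0.02. Zfp442 differed by -0.16 (adjusted p = 0.036), with 3.74, 4.67 and 5.88 CPM over 24 female and 4.51, 4.99 and 5.98 over 24 male libraries. Zfp516, a factor of brown fat, differed by -0.13, Zfp160 by -0.12, and Zfp687 and Zfp9 each by -0.10. The sexes overlapped for each of the 5. The calls of Zfp442 and Zfp516 were lost when no filter on low counts was applied, at adjusted p = 0.067 and 0.061.

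The genes through which KRAB proteins act were looked at as a list of 38 tested corepressor genes. In Q140 against wild type 3 rose and 7 fell under TMM scaling, which is 7.89% and 18.4% against 9.64% and 10.2% of all genes tested, with a median of -0.01. Under total scaling 13 rose and 1 fell, which is 34.2% and 2.63% against 25.4% and 5.53%, with a median of 0.07, so the direction depends on the scaling. Trim28 had a log2 difference of 0.05 (adjusted p = 0.27) and Setdb1 of -0.05 (adjusted p = 0.43). Hdac1, a histone deacetylase, rose by 0.39 (SE 0.08), from 5.64, 6.62 and 8.01 CPM in wild type to 6.92, 8.55 and 12.4 in Q140. Suv39h1, a histone methyltransferase, rose by 0.24, and Chd3, a remodeller of the NuRD complex, by 0.22. The 7 that fell included Mbd2, a reader of methylated DNA, by 0.23, and Cbx5, a heterochromatin protein, by 0.17. In Q140 Msh3-/- against Q140, 4 of the 38 rose and 2 fell under TMM scaling, against 6.85% and 5.04% of all genes tested, and 1 rose and 5 fell under total scaling, against 4.03% and 17.3%.

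Other zinc finger families were held to the same level of at least 4 CPM. Over all genes tested, 9.64% rose and 10.2% fell in Q140 under TMM scaling, and 25.4% and 5.53% under total scaling. Of 35 Zbtb genes 1 rose and 10 fell under TMM scaling, with a median of -0.10, and 6 rose and 4 fell under total scaling, with a median of -0.02. Of 14 Klf genes 0 rose and 2 fell under TMM scaling, with a median of -0.15, and 2 rose and 2 fell under total scaling, with a median of -0.07. The 19 Zkscan and Zscan genes, which also encode rows of fingers, had 3 risers and 1 faller and a median of 0.04 under TMM scaling, and 7 risers, 0 fallers and a median of 0.12 under total scaling. The difference between the families was not tested.

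On the genome, 77 of the members lie on chromosome 7, 31 on chromosome 17, 22 on chromosome 8 and 20 on chromosome 13. Runs of at least 3 members with gaps of at most 1 Mb held 164 members in 25 runs. The longest, with 17 members on chromosome 17 from Zfp160 to Zfp13 (chr17:21008903-23599487), had a median log2 difference of 0.05 in Q140, with 4 risers and no fallers. A run of 11 KRAB members on chromosome 13 had 0.06, with 1 riser and 1 faller. A run of 13 members on chromosome 7 that begins with Zfp180 had -0.02, with 1 riser and 1 faller. The other run of 13 members on that chromosome, from Zfp84 to Zfp146, had 0.06, with 3 risers and 1 faller. Of all genes tested, 9.64% rose and 10.2% fell under TMM scaling. The difference between runs was not tested.

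The genes outside the Zfp set whose mean levels over the 6 groups were most like the mean of the members, by Pearson's r across 6 group means, were 1700003E16Rik and Ufsp2 (r = 0.999 and 0.998), Ccdc166 (0.996), Rad51d (0.995) and Mblac2 (0.991), out of 12182 candidates. They are given as a description, since r over 6 means was ranked among so many genes. Their log2 differences in Q140 against wild type were 0.17, 0.10, 0.22, 0.12 and 0.19.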

How the data were processed

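RNA from mouse striatum was sequenced from stranded libraries, per the labels' protocols. The deposited counts are whole reads per gene; STAR 2.7.5c, SAMtools 1.10, HTSeq 0.12.3 and GRCm38 are named in the submitters' processing notes. The deposited FPKM values equal those counts divided by gene length and library total, so they are the same data on another scale.

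Genes were filtered with filterByExpr, and the model was edgeR's (version 4.0.16, under R 4.3.3; glmQLFit, robust, genotype group plus sex, all 48 libraries) with TMM scaling. Library totals replaced TMM as the second scaling. The quasi-likelihood p-values were Benjamini-Hochberg adjusted over 19975 genes in each of 9 comparisons, with a threshold of 0.05. Log2 differences carry a standard error (SE). The scripts were tested on simulated data. DESeq2 1.42.0 and limma 3.58.1 on log2(FPKM + 0.1) or log2(FPKM + 1) were alternatives. Coordinates and coding sequences are from GENCODE M21 (GRCm38).

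Named were the 5 members of highest FPKM, the 8 largest called rises and 6 largest called falls in Q140 against wild type, up to 4 of each in the other comparisons, 3 genes on either side of the level threshold, and members with a textbook role. Members and lists were chosen with earlier results of these data known. The lowest member count of 98 sets the weakest counting precision.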

Additional observations from a re-analysis of the deposited data

Results flagged for a closer look

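Among 72 sets of values, each of 1 group and 1 measure, 3 held a library far from the others, where chance gives about 1 in 20. The genes looked at were chosen with their values known. The members' median shift under TMM scaling was -0.00856 in Q140 library M4, apart from the other 7 Q140 libraries. Zfp706 stood at 124 CPM in Q140 Msh3-/- library F3, below the rest of its group. Zfp941 stood at 39.6 CPM in Msh3+/- library F4, above the rest of its group.

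Under TMM scaling the effect of Q140 differed between the Msh3-/- and wild-type backgrounds by the interaction test in edgeR for 4 members. Of these 3 were higher and 1 lower, against 1.67% and 0.721% of all genes tested. With this scaling the members were not called more often than genes in general. This does not carry over to total scaling, where 19 members were called, against 1.27% of all genes tested higher and 3.88% lower. The difference was 0.34 on the log2 scale for Zfp180, 0.25 for Zfp882, 0.20 for Zfp706 and -0.30 for Zfp9. Under total scaling Zfp180 and Zfp9 kept the call.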

How the results depend on the processing

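In Q140 against wild type scaling to library totals gave 117 higher, 8 lower and a median of 0.12, limma on log2(FPKM + 0.1) gave 120, 8 and 0.116, and limma on log2(FPKM + 1) gave 122, 8 and 0.093. FPKM is itself divided by the library total, so these settings share 1 scaling and their likeness is no independent support for it. In Q140 Msh3-/- against Q140 the same settings gave 83, 84 and 84 lower and medians of -0.10, -0.099 and -0.077. In Q140 Msh3+/- against Q140 they gave 9, 10 and 10 lower, with medians of -0.062 (totals) and -0.0616 (log2(FPKM + 0.1)). In Q140 Msh3+/- against Msh3+/- each gave 24 higher and 2 lower, with medians of 0.050, 0.0486 and 0.0384. For the interaction they gave 17, 21 and 21 lower and medians of -0.091, -0.089 and -0.072, and for the sexes 13, 14 and 14 lower in females.

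DESeq2 gave 5 lower in Q140 Msh3+/- against Q140, 6 higher and 5 lower for the interaction and 11 lower in females. RLE size factors gave 5 higher for the interaction. A minimum of 1 CPM in 24 libraries gave 4 lower in Q140 Msh3+/- against Q140, 6 higher and 3 lower for the interaction and 11 lower in females. With no filter these were 1 lower in Q140 Msh3+/- against Q140, 4 lower in Q140 Msh3+/- against Msh3+/- and 2 lower in females. Fits of only the compared groups gave 14 lower in Q140 Msh3-/- against Q140, 0 and 0 in Q140 Msh3+/- against Q140 and 3 higher in Q140 Msh3+/- against Msh3+/-. The plate column as a covariate gave 5 higher in Q140 Msh3-/- against Q140, 0 higher and 1 lower in Q140 Msh3+/- against Q140 and 3 lower in females. Members of at least 8 CPM gave 0 lower in Q140 Msh3+/- against Q140. The cause was not tested in these cases.

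Leaving out 1 library gave 16 to 36 lower in Q140 Msh3-/- against Q140, 0 to 7 higher and 0 to 11 lower in Q140 Msh3+/- against Q140, 3 to 9 higher and 4 to 8 lower in Q140 Msh3+/- against Msh3+/-, and 3 to 6 higher and 1 to 11 lower for the interaction. The replicate block gave 44 higher and 16 lower in Q140 against wild type and 4 lower in Q140 Msh3+/- against Msh3+/-. Samples that share a number are not paired by it: with group and sex removed, 2 of 7 pairs between wild type and Q140 correlated over 0.1.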
